A study of Mus musculus with 12 samples.

Results

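The endothelial genes examined here were 32 mouse genes used as general, capillary or arterial markers of the cells that line blood vessels. They were taken by gene symbol from a table of 27179 genes measured in hearts by RNA sequencing. All 32 were found, and all 32 passed the filter on low values, a mean of at least 10 over the 12 libraries. Hearts came from Balb/cByJ mice, labelled ∆ACADS after Acads, the gene of the short-chain acyl-CoA dehydrogenase, and from Balb/cJ mice, the related substrain. Each strain was examined after transverse aortic constriction (TAC), a narrowing of the aorta that loads the left ventricle with pressure, and after a sham operation. The groups were TAC Balb/cByJ, sham Balb/cByJ, TAC Balb/cJ and sham Balb/cJ, with 3 libraries each. The diet of all 4 groups held 10 kcal% fat and was begun 4 days ahead of the operation, and the hearts were collected 1 week later. Age and sex were not given in the labels, and the label of every library reads heart tissue, with no statement of which chambers were kept.

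Endothelial cells form the inner wall of every vessel. In the heart, capillaries lie beside nearly every muscle fibre and hand over oxygen and fatty acids. VEGF receptors, the angiopoietin receptor Tek and its partner receptor Tie1 control the growth and rest of endothelial cells. Junction proteins such as VE-cadherin (Cdh5) and claudin 5 (Cldn5) hold these cells together, and ETS and SOX transcription factors keep their identity. The endocardium, the endothelium of the heart's chambers, and the endothelium of veins carry more von Willebrand factor (Vwf) and, in many tissues, more of the vesicle protein Plvap than continuous capillaries do.

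Values are normalized read counts, that is, reads per gene divided by a size factor per library. Their sum per library lay between 26157968 and 26989827 in TAC Balb/cByJ and between 27790037 and 31092208 in sham Balb/cByJ. It lay between 25161466 and 28765635 in TAC Balb/cJ and between 28979605 and 34157613 in sham Balb/cJ. The library labelled TAC Balb/cByJ 6 went against its strain label. Zhx2 read 48 there, against 728 to 838 in the other 5 Balb/cByJ libraries and 21 to 47 in Balb/cJ, and Dnah17 and Glo1 showed the same split. Acads itself did not separate the strains cleanly, with 5613 to 6929 in Balb/cByJ and 5415 to 10928 in Balb/cJ, so it checks no label. Results for TAC Balb/cByJ hearts are given with and without that library. Sham Balb/cJ hearts had almost no atrial transcripts. Myl7, the atrial myosin light chain, lay between 2381 and 15126 in TAC Balb/cJ and between 6 and 13 in sham Balb/cJ. Its values spread widely in the other strain, between 640 and 30930 in TAC Balb/cByJ and between 237 and 14508 in sham Balb/cByJ. In Balb/cJ, this difference and surgery cannot be told apart.

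The members together made up 0.339 to 0.36% of the summed values in TAC Balb/cByJ and 0.318 to 0.33% in sham Balb/cByJ. They made up 0.26 to 0.287% in TAC Balb/cJ and 0.272 to 0.417% in sham Balb/cJ. The widest spread was thus within the sham Balb/cJ group, where library 1 was the highest of its group at 23 of the 32 members and library 3 the lowest at 25. In bulk tissue, fewer endothelial cells and less RNA per endothelial cell cannot be told apart.

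Per kilobase of gene length, the highest member was Fabp4, a fatty acid carrier of capillary endothelium that fat cells also make. Its level averaged 25742 ± 2326 in TAC Balb/cByJ, 26546 ± 1195 in sham Balb/cByJ, 20804 ± 5758 in TAC Balb/cJ and 34726 ± 5259 in sham Balb/cJ (normalized counts per kilobase, SD, n = 3 each). Aqp1, the water channel of the continuous capillary, came next with a mean of 4287 per kilobase over the 12 libraries. It was followed by Eng (1843), a TGF-beta co-receptor, and by Pecam1 (1743), the adhesion protein CD31. The SDs of Eng and Pecam1 overlapped in all 4 groups, so their order is not resolved. At the low end stood Myct1 (108), Gja5 (87.3), the arterial gap junction protein connexin 40, and Tal1 (35.8), a transcription factor shared with blood-forming cells. Even Tal1 read between 111 and 206 in every library, so all members were measured well above the filter.

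**Figure D1:**
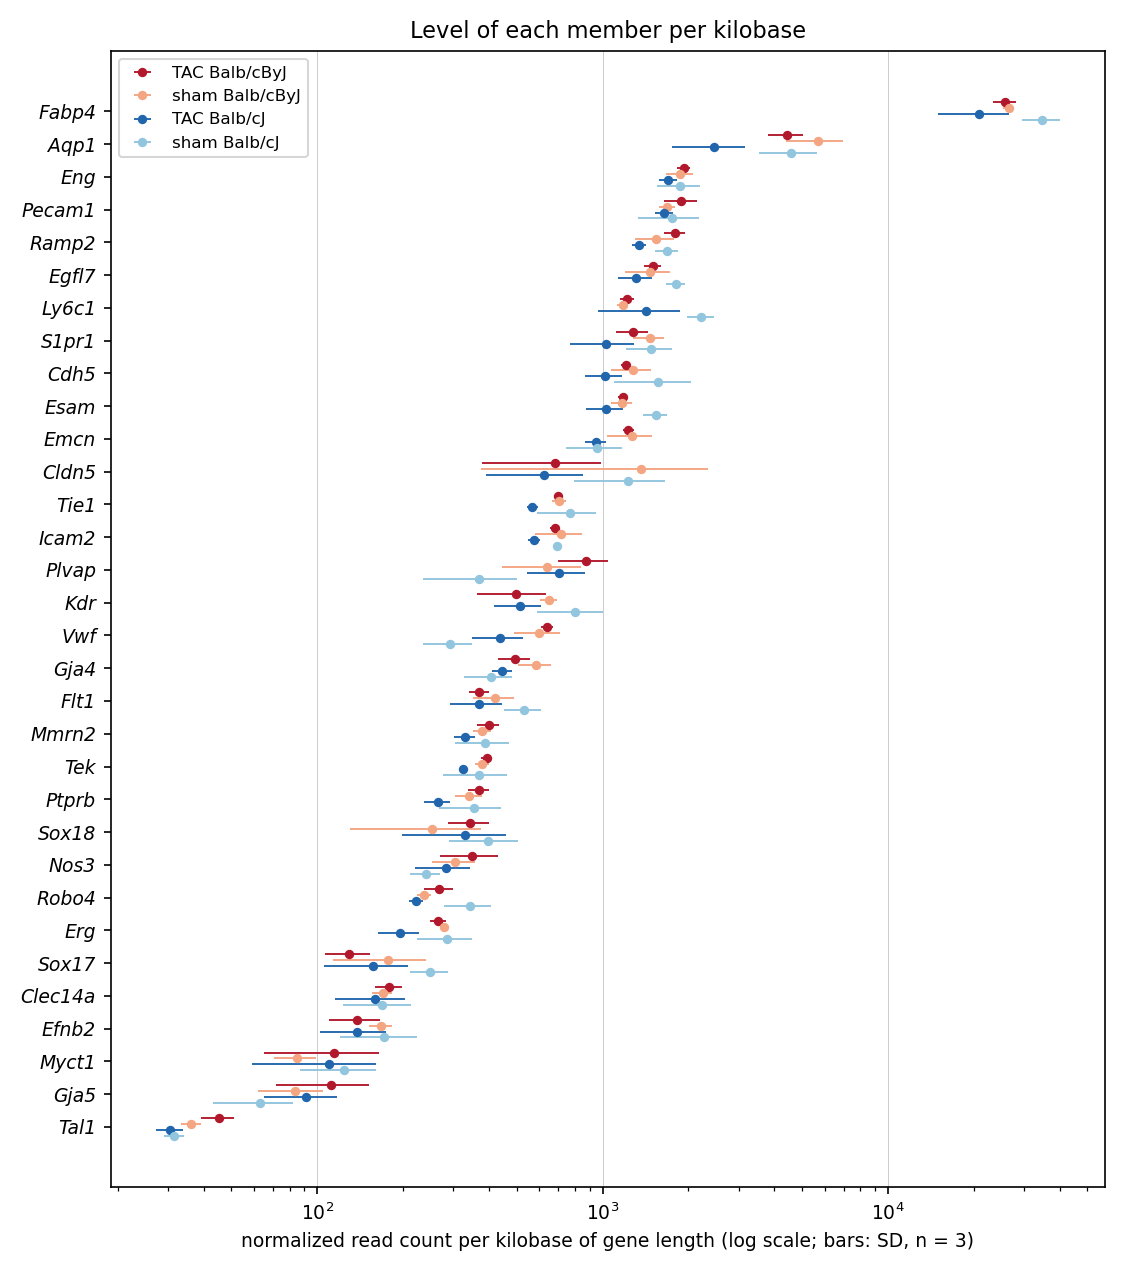
Level of each of the 32 endothelial genes per kilobase of gene length, on a log axis, with a point for the mean and a bar for the SD of the 3 libraries in each group. Fabp4 lies above every other member in all 4 groups, and Tal1 is lowest, with a mean of 35.8 per kilobase over the 12 libraries.

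Promoter sequence is shown for members that moved together after TAC in Balb/cJ, because endothelial promoters are known for ETS factor sites. The letters looked for were AGGAAG, a form of these sites that is longer than their GGAA core. A window without AGGAAG can still hold GGAA. RefSeq promoter windows on GRCm38.p6 were given for 18 of the 32 members, and the 250 bases before the transcript start nearest to the deposited gene start were searched for AGGAAG on both strands. Printed below are the 4 members that fell with the smallest p among those with a window, and Emcn, the sialomucin endomucin, whose adjusted p was the largest. Capitals mark AGGAAG or its reverse complement CTTCCT, and each sequence runs 5′ to 3′ on the gene's strand.
Robo4 (chr9:37401722-37401971, plus strand): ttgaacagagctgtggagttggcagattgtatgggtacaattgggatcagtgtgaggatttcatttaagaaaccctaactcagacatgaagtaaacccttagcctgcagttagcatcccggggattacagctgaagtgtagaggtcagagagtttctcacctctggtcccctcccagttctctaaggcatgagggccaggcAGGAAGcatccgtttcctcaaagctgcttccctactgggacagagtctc
Aqp1 (chr6:55336049-55336298, plus strand): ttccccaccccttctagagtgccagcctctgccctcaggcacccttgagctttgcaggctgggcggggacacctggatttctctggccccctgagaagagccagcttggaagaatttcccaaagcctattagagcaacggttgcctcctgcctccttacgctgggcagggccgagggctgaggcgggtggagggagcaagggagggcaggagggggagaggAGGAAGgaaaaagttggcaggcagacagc
Ly6c1 (chr15:75048838-75049087, minus strand): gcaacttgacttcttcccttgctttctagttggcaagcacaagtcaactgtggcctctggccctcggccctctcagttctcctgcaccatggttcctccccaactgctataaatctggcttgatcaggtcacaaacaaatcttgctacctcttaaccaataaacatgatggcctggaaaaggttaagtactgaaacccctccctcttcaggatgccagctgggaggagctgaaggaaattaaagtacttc
Egfl7 (chr2:26580833-26581082, plus strand): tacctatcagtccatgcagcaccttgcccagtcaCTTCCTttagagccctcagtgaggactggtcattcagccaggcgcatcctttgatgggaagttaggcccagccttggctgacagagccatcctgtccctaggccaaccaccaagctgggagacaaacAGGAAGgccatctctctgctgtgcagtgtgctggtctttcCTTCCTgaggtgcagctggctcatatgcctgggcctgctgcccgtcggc
Emcn (chr3:137340828-137341077, plus strand): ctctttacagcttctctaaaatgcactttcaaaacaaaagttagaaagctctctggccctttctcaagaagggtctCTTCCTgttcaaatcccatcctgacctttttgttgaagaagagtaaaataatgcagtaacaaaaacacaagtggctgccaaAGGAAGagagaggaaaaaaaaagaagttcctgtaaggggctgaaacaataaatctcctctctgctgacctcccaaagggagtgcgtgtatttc
The letters occurred once or more in 8 of the 18 windows (44.4%), beside 29.5% of all 32851 windows of the same length. They occurred in 5 of the 8 windows of members that fell after TAC in Balb/cJ and in 3 of the 10 windows of members that did not pass there. Egfl7 held 3 matches and Emcn 2, Robo4 and Aqp1 held 1 each, and the Ly6c1 window held 0. These counts depend on the transcript start used. Another Ly6c1 window, whose start lay 174 bases from the deposited gene start, held 3 matches. Further windows of Egfl7, Erg and Tal1 held 0 or 1. A match is a description of these letters and not a binding site.

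TAC against sham in Balb/cJ asked how pressure load changed endothelial genes in Balb/cJ. Among the 32 members, 15 fell at a limma adjusted p under 0.1, a share of 46.9% beside 16.2% of all 14038 genes tested. Another 2 rose, Vwf and Plvap, which is 6.2% beside 15.3% of all genes, and 15 did not pass in either direction. The median log2 difference, TAC minus sham on the log2(value + 1) scale, was -0.31 over the members and 0.00 over all genes. Libraries of the groups did not overlap for 13 members that were lower and 2 that were higher, beside 18.1% and 18.8% of all genes. The p-values speak only of the spread among these libraries, which may be technical, since the labels do not say that each came from its own mouse.

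**Figure D2:**
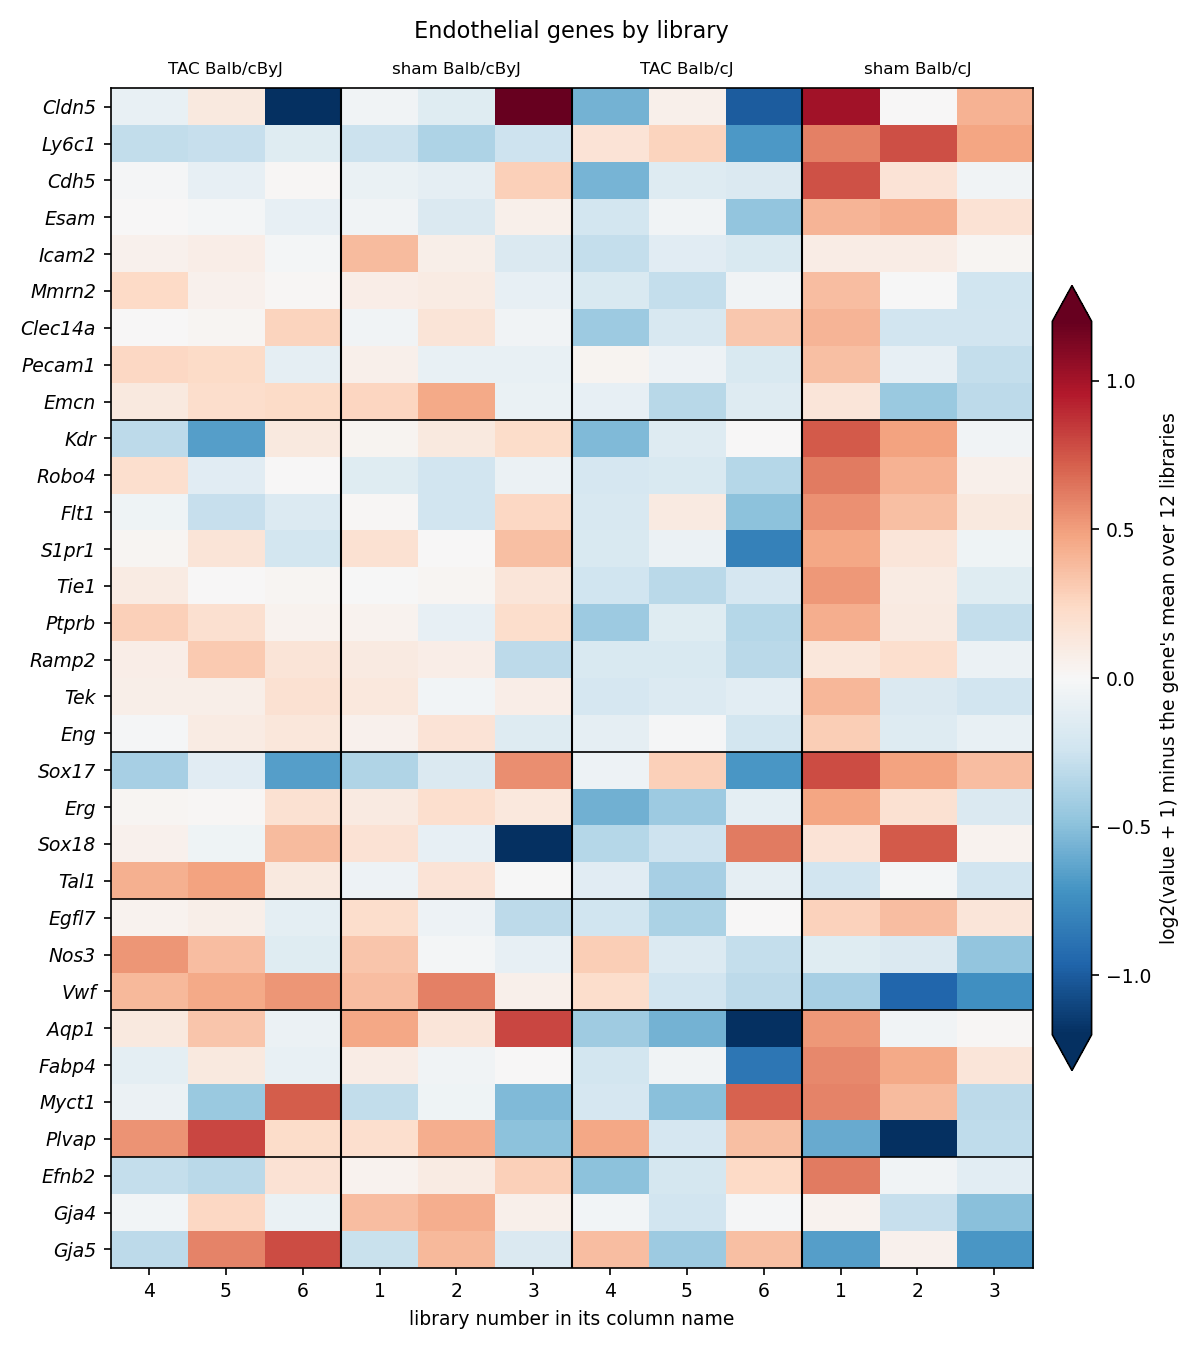
Deviation of log2(value + 1) from each gene's mean over 12 libraries, with genes in rows grouped by role and libraries in columns by group. Colours saturate beyond 1.2 on the log2 scale. The sham Balb/cJ columns are redder than TAC Balb/cJ for most receptors, while Vwf and Plvap run the other way.

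Of the 9 junction and surface proteins, 3 fell. Esam, a tight junction adhesion molecule (chromosome 9, 37528089 to 37538319, plus strand), read 1926, 2183 and 1619 in TAC Balb/cJ hearts, against 2970, 3037 and 2526 in sham Balb/cJ hearts. Every TAC library lay below every sham library, with a log2 difference of -0.58 (SE 0.11, limma adjusted p = 0.00902), the smallest adjusted p of the members. Cdh5, the VE-cadherin of adherens junctions, read 3360, 4451 and 4373 after TAC, against 8393, 5549 and 4814 after sham. The groups did not overlap, although sham library 1 stood far above the other sham libraries, and the log2 difference was -0.59 (SE 0.18, limma adjusted p = 0.0409). On the opposite strand, 847 of the 3986 exon bases of Cdh5 overlap an unnamed entry that read at most 15. Ly6c1, a GPI-anchored surface protein of capillary endothelium, read 2664, 2862 and 1473 after TAC, against 3603, 4055 and 3291 after sham. TAC library 6 was the lowest, the groups did not overlap, and the log2 difference was -0.70 (SE 0.19, limma adjusted p = 0.0272). Ly6c1 has a near-identical copy, Ly6c2, which read 15 to 29 in all 12 libraries, so how reads were split between them is uncertain.

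The other 6 of these proteins did not pass. Pecam1, the most used endothelial marker, read 5828, 5469 and 5040 in TAC Balb/cJ hearts, against 7346, 5336 and 4671 in sham Balb/cJ hearts. The sham values enclosed the TAC values, and the log2 difference was -0.06 (95% interval -0.39 to 0.26). Emcn had a log2 difference of 0.01 (95% interval -0.33 to 0.35). Icam2, an adhesion ligand of leukocytes, and Mmrn2 and Clec14a, a matrix protein and its endothelial lectin receptor, had log2 differences of -0.27, -0.21 and -0.08. Cldn5, the claudin of endothelial tight junctions, varied too much for a call. It read 807, 1245 and 598 after TAC, against 2408, 1204 and 1597 after sham, and the 95% interval of its log2 difference of -0.98 ran from -2.01 to 0.05.

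Of the 9 vascular receptors with their phosphatase, 7 fell and none rose. Robo4, a receptor that stabilizes vessels (chromosome 9, 37402046 to 37414022, plus strand), read 839, 849 and 764 in TAC Balb/cJ hearts, against 1487, 1294 and 1010 in sham Balb/cJ hearts. The TAC libraries were close together and all below the sham libraries, with a log2 difference of -0.61 (SE 0.13, limma adjusted p = 0.0119). Its promoter window held the ETS letters shown above. Both receptors of VEGF-A fell. Flt1, the VEGF receptor 1 that also acts as a decoy, read 2280, 2806 and 1846 after TAC, against 3812, 3348 and 2823 after sham, a narrow gap between groups with a log2 difference of -0.54 (SE 0.16, limma adjusted p = 0.0371). Kdr, the main signalling receptor for VEGF-A, read 2235, 2899 and 3246 after TAC, against 5401, 4521 and 3140 after sham. The groups overlapped through sham library 3, and the log2 difference was -0.62 (SE 0.22, limma adjusted p = 0.0589).

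Tie1, the partner receptor of Tek, read 2226, 2095 and 2284 in TAC Balb/cJ hearts, against 3757, 2815 and 2380 in sham Balb/cJ hearts. The groups did not overlap, and the log2 difference was -0.41 (SE 0.13, limma adjusted p = 0.0435). Ptprb, the phosphatase that dampens Tek and VEGF receptor signals, read 2873, 3506 and 3067 after TAC, against 5258, 4180 and 3189 after sham, with overlap at sham library 3 and a log2 difference of -0.39 (SE 0.16, limma adjusted p = 0.0899). Tek itself, the angiopoietin receptor, did not pass, with a log2 difference of -0.16 (95% interval -0.45 to 0.13).

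S1pr1, the receptor through which sphingosine 1-phosphate tightens junctions, read 3416, 3697 and 2222 in TAC Balb/cJ hearts, against 5363, 4298 and 3747 in sham Balb/cJ hearts. The groups lay just apart, with a log2 difference of -0.54 (SE 0.19, limma adjusted p = 0.0591). Ramp2, which pairs with a receptor to bind adrenomedullin, read 1209, 1210 and 1096 after TAC, against 1509, 1576 and 1312 after sham. Its change was the smallest of the members that fell, a log2 difference of -0.32 (SE 0.12, limma adjusted p = 0.0761), again without overlap. Eng did not pass, with a log2 difference of -0.13 (95% interval -0.40 to 0.14).

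Among the 4 transcription factors, 2 fell. Erg, an ETS factor that maintains endothelial identity and junctions, read 373, 413 and 513 in TAC Balb/cJ hearts, against 774, 632 and 494 in sham Balb/cJ hearts. Sham library 3 fell inside the TAC range, and the log2 difference was -0.54 (SE 0.15, limma adjusted p = 0.0316). Sox17, an arterial SOX factor, read 505, 645 and 325 after TAC, against 912, 738 and 685 after sham, without overlap and with a log2 difference of -0.71 (SE 0.27, limma adjusted p = 0.0757). Sox18, its relative, had a log2 difference of -0.31 (95% interval -1.10 to 0.49), and Tal1 had -0.05 (95% interval -0.38 to 0.27). Neither passed.

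Of the 3 secreted factors and enzymes, Egfl7 fell, Vwf rose and Nos3 did not pass. Egfl7, an endothelial matrix factor, read 2062, 1874 and 2443 in TAC Balb/cJ hearts, against 2964, 3157 and 2700 in sham Balb/cJ hearts. The groups did not overlap, and the log2 difference was -0.47 (SE 0.13, limma adjusted p = 0.0294). Vwf, the clotting factor stored in endothelial granules (chromosome 6, 125552963 to 125686677, plus strand), read 4760, 3511 and 3306 after TAC, against 3121, 2127 and 2468 after sham. Every TAC library was above every sham library, with a log2 difference of 0.58 (SE 0.17, limma adjusted p = 0.0336). Nos3, the endothelial nitric oxide synthase, had a log2 difference of 0.21 (95% interval -0.21 to 0.63), and 294 of its 4123 exon bases overlap Atg9b on the opposite strand.

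The transport genes held the largest changes in both directions among the members that passed. Aqp1 (chromosome 6, 55336299 to 55348555, plus strand) read 8252, 7500 and 4580 in TAC Balb/cJ hearts, against 15964, 10772 and 11209 in sham Balb/cJ hearts. The groups were well apart, with a log2 difference of -0.92 (SE 0.23, limma adjusted p = 0.0201). Fabp4 (chromosome 3, 10204342 to 10208576, minus strand) read 14502, 16344 and 9222 after TAC, against 25195, 23099 and 18588 after sham, again without overlap, with a log2 difference of -0.77 (SE 0.18, limma adjusted p = 0.0171). Fabp4 is also a fat cell gene, and 5 of 6 tested adipocyte markers rose in the same comparison, Adipoq reading 33, 208 and 108 after TAC and 4, 2 and 3 after sham, so the marker list moved opposite to Fabp4. Plvap, the diaphragm protein of endothelial vesicles (chromosome 8, 71497753 to 71511769, minus strand), read 1666, 1048 and 1555 after TAC, against 796, 449 and 979 after sham. The gap between the groups was small beside their spread, and the log2 difference was 0.98 (SE 0.30, limma adjusted p = 0.0374). Myct1, an endothelial membrane protein, had a log2 difference of -0.22 (95% interval -0.97 to 0.53) and did not pass.

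None of the 3 arterial genes passed in Balb/cJ. Gja4, connexin 37, had a log2 difference of 0.15 (95% interval -0.17 to 0.47), and Efnb2, the arterial ephrin ligand, had -0.31 (95% interval -0.78 to 0.17). Gja5 had 0.54 (95% interval -0.15 to 1.23). Atrial muscle also expresses Gja5, and the 6 atrial marker genes all rose here, with summed values between 41174 and 154138 in TAC Balb/cJ and between 8737 and 18795 in sham Balb/cJ.

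**Figure D3:**
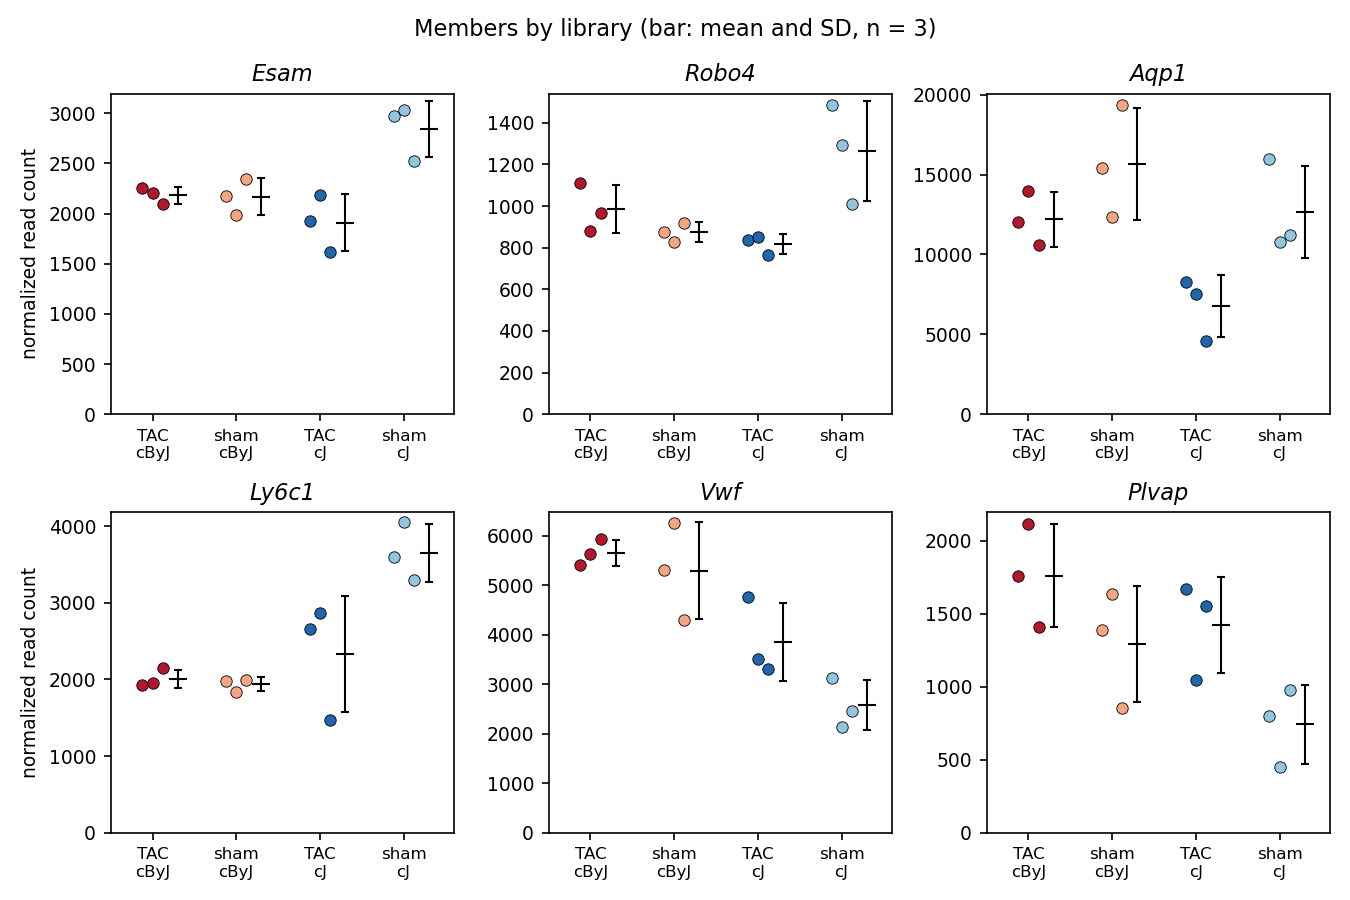
Normalized read counts of 6 members in every library, with the mean and SD of each group of 3. Esam, Robo4, Aqp1 and Ly6c1 are lower in TAC Balb/cJ than in sham Balb/cJ, and Vwf and Plvap are higher, while the TAC and sham Balb/cByJ libraries overlap in all 6 panels.

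These counts depended on the scaling and on which libraries were used. When all libraries were brought to an equal total, 5 members were lower and 2 higher, and the member median was -0.10 beside a shift of 0.21 in the median of all genes, whose calls then ran 3936 higher and 891 lower in place of 2146 and 2273. Esam, Robo4, Erg, Aqp1 and Fabp4 passed whichever of the 6 libraries was left out. Without sham library 2, 7 members were lower and 0 higher, and the calls over all genes also dropped, to 1322 higher and 866 lower. There Ly6c1, Kdr, Flt1, Ptprb, S1pr1, Ramp2, Sox17, Egfl7, Vwf and Plvap had limma adjusted p between 0.103 and 0.222. Without TAC library 6, Flt1, Ptprb, S1pr1, Ramp2, Sox17 and Plvap did not pass (limma adjusted p between 0.115 and 0.282). Without sham library 1, Kdr, Ptprb, S1pr1, Ramp2 and Sox17 did not pass (between 0.134 and 0.266), and without sham library 3, Sox17 did not (0.115). Without TAC library 4, the calls of Cdh5, Kdr and Ptprb were lost (between 0.11 and 0.195), and without TAC library 5, those of Tie1 and Ramp2 (0.108 and 0.112). With the mean log2 level of the atrial genes Myl7, Myl4 and Sln as a covariate, limma called 0 members and 0 of all 14038 genes, of which 1431 had an unadjusted p under 0.05. The member median was then -0.32, about the size it had without the covariate. In Balb/cJ the level of these atrial genes goes with surgery, so this fit cannot separate them, and no conclusion is drawn from that median. In the authors' deposited table, 15 members were lower and 2 higher, beside 9.79% and 11.7% of its genes with an adjusted p. The lower members of that table and of limma shared 14, with Cldn5 called there alone and Ptprb by limma alone.

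Endocardial markers moved beside Vwf and Plvap. Hapln1, a matrix link protein of endocardium and valves, read 40, 25 and 29 in TAC Balb/cJ hearts and 0 in all 3 sham Balb/cJ hearts. Cytl1 rose by 1.32 on the log2 scale (SE 0.35, limma adjusted p = 0.0225), with 461 to 724 after TAC and 184 to 310 after sham. Of the 4 genes of the endocardial list, 3 rose, beside 15.3% of all genes higher and 16.2% lower. The sums of the list ran from 1791 to 2815 after TAC and from 985 to 1793 after sham. Of the other lists, 4 of 5 epicardial and mesothelial markers rose, 6 of 7 macrophage markers rose and 3 of 8 ventricular muscle markers fell. Their part in the values of the members was not tested.

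TAC against sham in Balb/cByJ asked the same of Balb/cByJ. No member passed in either direction (0 of 32 by limma, with 0 at an unadjusted p under 0.05), beside 7.81% of all genes higher and 4.76% lower. The median log2 difference of the members was 0.05, and 0.00 over all genes. Libraries of the groups overlapped for every member, while 16.4% of all genes were apart and higher and 18.8% apart and lower. The authors' deposited table likewise called 0 members in this strain, where 10.5% of its genes were higher and 9.97% lower. Without the library labelled TAC Balb/cByJ 6, the members called were again 0, with 2 at an unadjusted p under 0.05, beside 3.97% of all genes higher and 0.926% lower, and the median was 0.01. The groups were then apart for 4 members that were higher and 3 that were lower, beside 22.8% and 24.5% of all genes. The calls over all genes, 1097 higher and 668 lower, rested on single sham libraries too. They were 6 and 0 without sham Balb/cByJ library 1, and 74 and 1 without sham Balb/cByJ library 3.

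The members with the smallest p in Balb/cByJ were Tal1, Ramp2 and Kdr. Tal1 read 198, 206 and 159 in TAC Balb/cByJ hearts, against 141, 164 and 146 in sham Balb/cByJ hearts, a log2 difference of 0.31 (95% interval -0.01 to 0.63, limma adjusted p = 0.199). The library labelled TAC 6 lay among the sham values. Ramp2 read 1456, 1713 and 1526 after TAC, against 1482, 1447 and 1103 after sham, a log2 difference of 0.23 (95% interval -0.03 to 0.49, limma adjusted p = 0.242). Kdr read 2610, 2040 and 3510 after TAC, against 3302, 3512 and 3780 after sham, a log2 difference of -0.41 (95% interval -0.88 to 0.06, limma adjusted p = 0.243). A fall of the size seen in Balb/cJ thus lies inside the interval for Kdr. When the library labelled TAC 6 was left out, Tal1 had a log2 difference of 0.43 (95% interval 0.09 to 0.76, limma adjusted p = 0.152), Ramp2 0.25 (-0.06 to 0.55, adjusted p = 0.317) and Kdr -0.61 (-1.08 to -0.14, adjusted p = 0.144).

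For the 15 members that fell in Balb/cJ, the log2 differences in Balb/cByJ ran from -0.41 to 0.23, with a median of -0.05. They ran from -0.61 to 0.25, with a median of -0.02, without the library labelled TAC 6. Esam read 2255, 2202 and 2092 in TAC Balb/cByJ hearts, against 2175, 1985 and 2348 in sham Balb/cByJ hearts, a log2 difference of 0.01 (95% interval -0.24 to 0.26). Robo4 read 1111, 882 and 967 after TAC, against 876, 825 and 921 after sham, a log2 difference of 0.17 (95% interval -0.12 to 0.46). Both intervals lie above the log2 differences of the same genes in Balb/cJ, and the interaction below tests that difference. Fabp4 read 15504, 18240 and 15835 after TAC, against 17866, 16348 and 16913 after sham, and Aqp1 read 12047, 14002 and 10586 after TAC, against 15384, 12334 and 19339 after sham. For Aqp1 the log2 difference was -0.35 (95% interval -0.85 to 0.16), an interval that includes no change and ends just short of the Balb/cJ value of -0.92. Without the library labelled TAC 6, the log2 differences were 0.04 for Esam (95% interval -0.25 to 0.33), 0.18 for Robo4 (-0.16 to 0.52) and -0.25 for Aqp1 (-0.82 to 0.33).

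**Figure D4:**
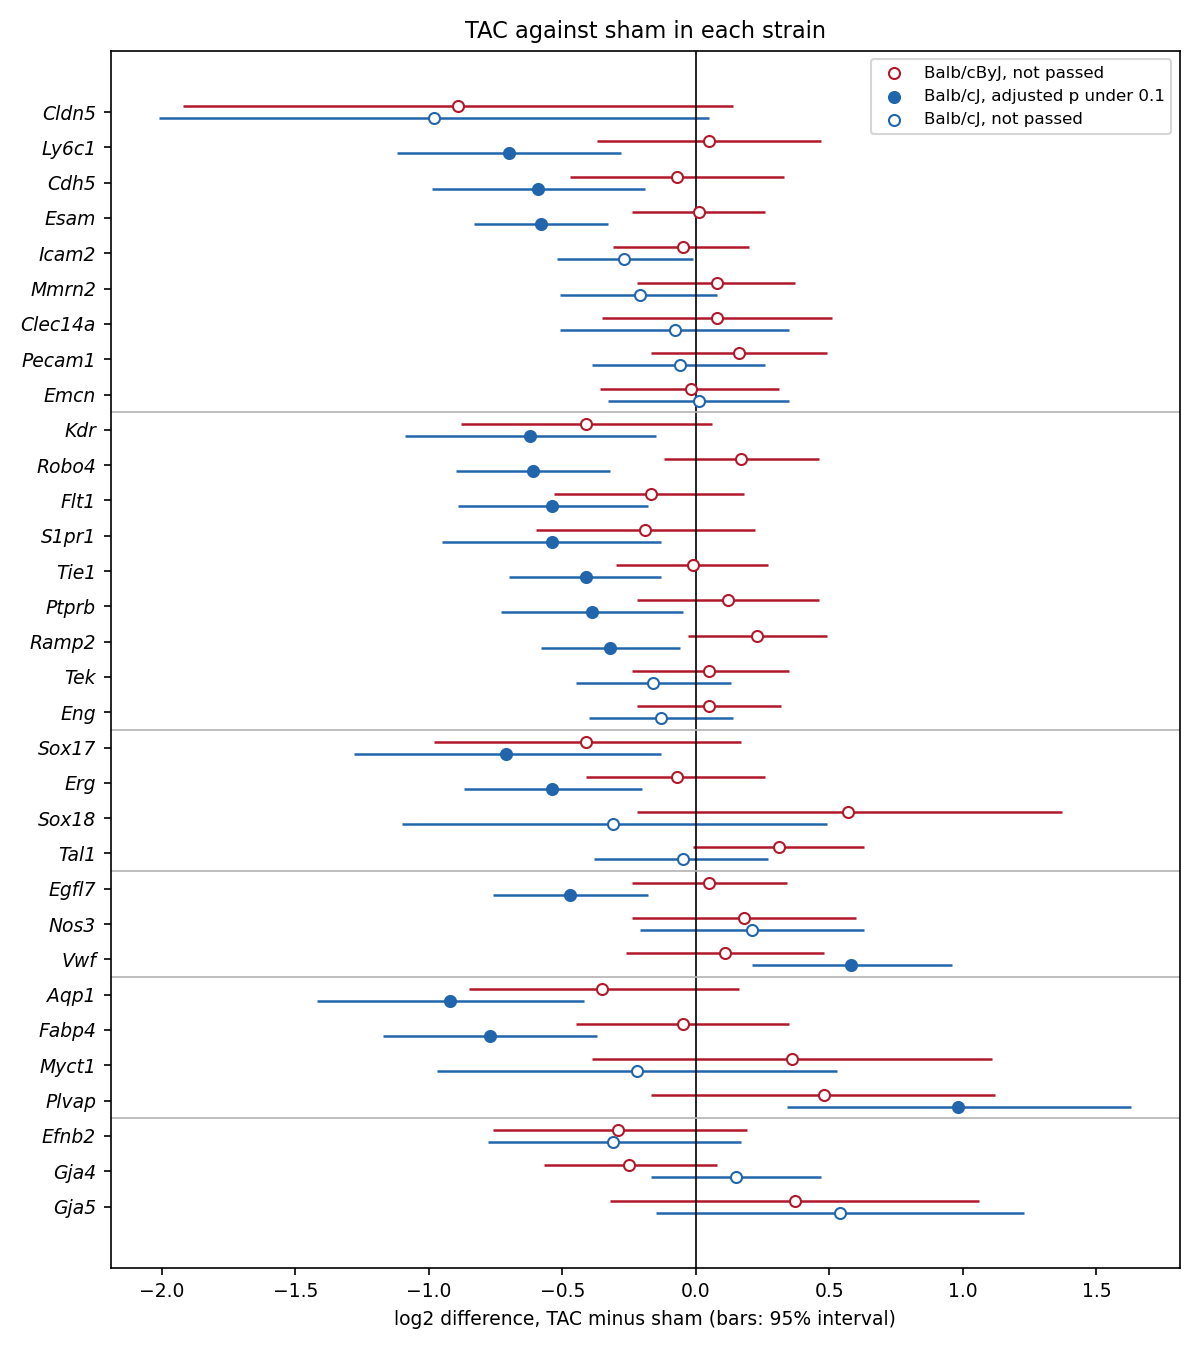
Log2 difference, TAC minus sham, of each member in Balb/cByJ and in Balb/cJ, with 95% intervals from limma and filled points for an adjusted p under 0.1. Filled points appear in Balb/cJ only, 15 below 0 and 2 above it. The intervals of the strains do not overlap for Esam, Robo4 and Ramp2 and overlap for the other members.

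The strain by surgery interaction, the Balb/cByJ effect of TAC less the Balb/cJ effect, tested whether those effects differ. It passed for 0 of 32 members by limma, beside 0.0% of all genes higher and 0.00712% lower, and 7 members had an unadjusted p under 0.05. The median over the members was 0.32, beside 0.01 over all genes, and it was 0.39 without the library labelled TAC Balb/cByJ 6, when again 0 members passed, with 8 at an unadjusted p under 0.05. The smallest p belonged to Robo4, with an interaction of 0.78 (SE 0.19, limma adjusted p = 0.449), then Esam with 0.59 (SE 0.16, limma adjusted p = 0.509) and Ramp2 with 0.55 (SE 0.17, limma adjusted p = 0.669). All 15 members that fell in Balb/cJ had a positive interaction, between 0.21 and 0.78, a direction to which their choice on the Balb/cJ effect contributes. A p that misses the threshold does not show that the strains respond alike. The interaction also contains the sham Balb/cJ libraries, which had almost no atrial transcripts. That difference and a strain difference in the effect of surgery cannot be told apart here. The 95% interval for Robo4 ran from 0.37 to 1.19, but it is not adjusted for the choice of the member with the smallest p. With that library left out, the interaction was 0.79 for Robo4 (limma adjusted p = 0.666), 0.62 for Esam (0.706) and 0.57 for Ramp2 (0.827), while that for Kdr was 0.01 and the range over those 15 members was 0.01 to 0.79.

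Balb/cByJ against Balb/cJ after sham compared the strains without load. Here 2 members were higher and 3 lower in Balb/cByJ by limma, beside 4.27% and 4.1% of all genes, and the member median was -0.02. The comparison shares the sham Balb/cJ libraries with the TAC comparison in Balb/cJ, so its values are not independent of those above. Vwf read 5311, 6256 and 4300 in sham Balb/cByJ hearts, against 3121, 2127 and 2468 in sham Balb/cJ hearts. It was clearly apart, with a log2 difference of 1.04 (SE 0.17, limma adjusted p = 0.00853). Gja4, the arterial connexin, read 997, 1043 and 805 in sham Balb/cByJ, against 794, 637 and 542 in sham Balb/cJ, which left a narrow gap and a log2 difference of 0.54 (SE 0.15, limma adjusted p = 0.0654).

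The 3 lower members were Ly6c1, Robo4 and Esam. Ly6c1 read 1979, 1830 and 1995 in sham Balb/cByJ hearts, far below the 3603, 4055 and 3291 in sham Balb/cJ hearts, with a log2 difference of -0.91 (SE 0.19, limma adjusted p = 0.025). In Balb/cByJ its level was nearly the same after TAC, at 1926, 1958 and 2143. Robo4 had a log2 difference of -0.51 (SE 0.13, limma adjusted p = 0.0502) and Esam -0.39 (SE 0.11, limma adjusted p = 0.0784), with the groups apart for both. Endocardial Cytl1 was also higher in sham Balb/cByJ, by 2.06 on the log2 scale (SE 0.35, limma adjusted p = 0.00876). Hapln1 read 48, 43 and 7 there, against 0 in all 3 sham Balb/cJ hearts, and 4 of 6 atrial markers were higher. With the atrial covariate, Vwf had a log2 difference of 0.86 and no longer passed (limma adjusted p = 0.251), and 0 members passed in this comparison. The part of the endocardial markers in the Vwf value was not tested. Vwf passed whichever library was left out, and Ly6c1 was lost without sham Balb/cJ library 2 (limma adjusted p = 0.113), when 0 members were lower. Robo4 was lost without that library or without sham Balb/cByJ library 1 or 2 (between 0.119 and 0.172), and Gja4 without any of those or sham Balb/cJ library 3 (between 0.167 and 0.211). Esam passed without sham Balb/cJ library 3 and was lost without any other library (between 0.105 and 0.25), while 4 members were higher without sham Balb/cJ library 1 or sham Balb/cByJ library 3.

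Balb/cByJ against Balb/cJ after TAC compared the loaded hearts. By limma, 0 of 32 members passed, beside 0.00712% of all genes higher and 0.0% lower, and 8 members had an unadjusted p under 0.05. The member median was 0.26, beside 0.00 over all genes, and 0.27 without the library labelled TAC Balb/cByJ 6. Without that library again 0 members passed, with 7 at an unadjusted p under 0.05, while 0.349% of all genes were higher and 0.185% lower. Libraries of the groups did not overlap for 13 members, all higher in Balb/cByJ, beside 6.91% of all genes higher and 7.54% lower. Without that library they were apart for 19 members, all higher, beside 12.9% of all genes higher and 12.8% lower. The smallest p belonged to Aqp1, Tal1 and Ramp2. Aqp1 had 10586 to 14002 in TAC Balb/cByJ, against 4580 to 8252 in TAC Balb/cJ, a log2 difference of 0.88 (SE 0.23, limma adjusted p = 0.256). Tal1 read 198, 206 and 159 in TAC Balb/cByJ, against 133, 111 and 136 in TAC Balb/cJ, a log2 difference of 0.56 (SE 0.15, limma adjusted p = 0.26). Ramp2 had a log2 difference of 0.42 (SE 0.12, limma adjusted p = 0.29), with 1456 to 1713 in TAC Balb/cByJ and 1096 to 1210 in TAC Balb/cJ. Leaving that library out gave log2 differences of 0.98 for Aqp1 (limma adjusted p = 0.186), 0.67 for Tal1 (0.129) and 0.43 for Ramp2 (0.31).

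Other endothelial genes, none of them members, were read from 8 lists with 76 genes. After TAC in Balb/cJ, 20 were lower and 10 higher, or 26.3% and 13.2%, beside 16.2% and 15.3% of all genes, with a median log2 difference of -0.20. Of the 8 capillary genes of fatty acid handling, 5 were lower and 0 higher, with a median of -0.80. Gpihbp1, which anchors lipoprotein lipase on the capillary wall, read 1805, 2176 and 1245 in TAC Balb/cJ hearts, against 3491, 3624 and 3089 in sham Balb/cJ hearts. Its groups lay well apart, with a log2 difference of -1.0 (SE 0.17, limma adjusted p = 0.00537). Tcf15, the partner of Meox2 in the transcription of fatty acid transport genes, fell by 0.93 on the log2 scale (SE 0.21, limma adjusted p = 0.0132), and Rgcc, a capillary marker, by 1.54 (SE 0.39, limma adjusted p = 0.021). Cd36, the fatty acid transporter shared with muscle, did not pass, at -0.36 (SE 0.19).

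Among 15 other pan-endothelial genes, 6 were lower and 0 higher, beside 16.2% and 15.3% of all genes. Ushbp1, with a log2 difference of -0.81 (SE 0.14, limma adjusted p = 0.00551), Tspan7 with -0.50 (SE 0.10, limma adjusted p = 0.0102) and Shank3 with -0.54 (SE 0.14, limma adjusted p = 0.021) led them. In the Notch and arterial list, 4 of 12 were lower, led by Notch4, an endothelial Notch receptor, with -0.55 (SE 0.12, limma adjusted p = 0.0136). Ligands of the member receptors moved unequally. Vegfa, the ligand of Kdr and Flt1, read 4336, 4240 and 4087 in TAC Balb/cJ hearts, against 5504, 7072 and 6068 in sham Balb/cJ hearts, a log2 difference of -0.55 (SE 0.14, limma adjusted p = 0.0191). Angpt1, the activating ligand of Tek, rose by 1.34 on the log2 scale (SE 0.28, limma adjusted p = 0.0102), with 480 to 791 after TAC and 185 to 270 after sham. In Balb/cByJ, Angpt1 read 783 to 974 after TAC and 604 to 1312 after sham. The low group was thus sham Balb/cJ, the group that had almost no atrial transcripts. Whether the Angpt1 values are linked to the atrial transcripts was not tested.

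Among venous and flow-responsive genes, those that passed in Balb/cJ all rose, the direction of Vwf and Plvap. Of 6 venous genes, 2 rose, or 33.3% beside 15.3% of all genes, and the list median was 0.78. Selp, the leukocyte-binding P-selectin stored beside von Willebrand factor, read 234, 141 and 206 in TAC Balb/cJ hearts, against 38, 47 and 27 in sham Balb/cJ hearts, a log2 difference of 2.35 (SE 0.36, limma adjusted p = 0.00377). Platelets also hold Selp, and 1 of 4 tested platelet markers rose, or 25.0%. Of 7 flow-responsive genes, 2 rose, or 28.6%, but 4 had a negative log2 difference and the list median was -0.02. Ptgis, the prostacyclin synthase, rose by 1.16 on the log2 scale (SE 0.24, limma adjusted p = 0.00979) and Piezo1, a mechanosensitive channel, by 0.39 (SE 0.13, limma adjusted p = 0.0515).

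In Balb/cByJ, 6 of the 76 other endothelial genes were higher and 1 lower after TAC, or 7.9% and 1.3%, beside 7.81% and 4.76% of all genes, with a median log2 difference of 0.08. Without the library labelled TAC Balb/cByJ 6, 2 were higher and 1 lower, beside 3.97% and 0.926% of all genes. The lower gene was Vegfa, which read 3695, 4047 and 3735 in TAC Balb/cByJ hearts, against 7247, 4778 and 5426 in sham Balb/cByJ hearts, a log2 difference of -0.58 (SE 0.14, limma adjusted p = 0.0432). Selp rose there too, by 1.56 (SE 0.36, limma adjusted p = 0.04). None of the 8 capillary fatty acid genes passed, and Gpihbp1 had a log2 difference of -0.07 (SE 0.17). With the library labelled TAC 6 left out, Vegfa had a log2 difference of -0.57 (limma adjusted p = 0.0937) and Selp 1.73 (limma adjusted p = 0.065), and again none of the 8 passed.

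**Figure D5:**
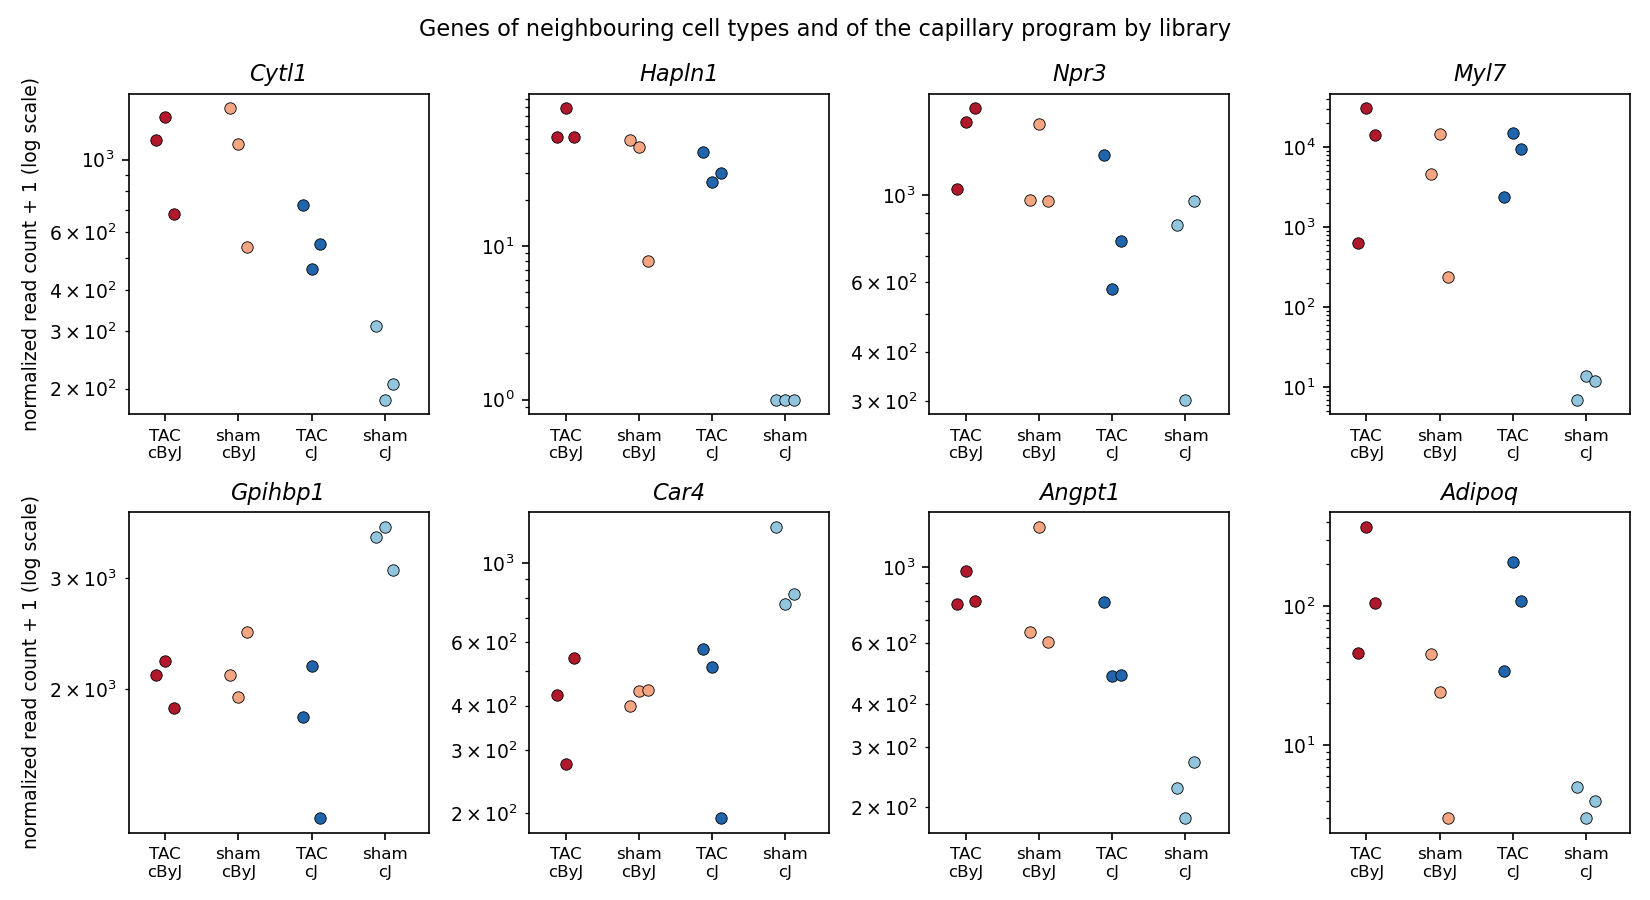
Normalized read count plus 1, on a log axis, of 8 genes that are not members, in every library. Cytl1, Hapln1, Angpt1, Myl7 and Adipoq have their lowest group means in sham Balb/cJ, where Hapln1 is at 0, while Gpihbp1 and Car4 have their highest there.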

How the data were processed

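Heart RNA of 12 libraries was prepared with a stranded mRNA kit, per the labels' protocols. Reads were processed with STAR, featureCounts of Subread and DESeq2 on mm10, per the submitters' processing notes. For their versions, the strand setting and the annotation, the sources used here give nothing. Whether reads of genes that overlap on opposite strands were separated is therefore not known. Values were deposited as scores: the authors scaled read counts with size factors and then rounded them. The evidence is in the values, since of the whole numbers 1 to 30 up to 5 never occurred in a library. Reads cannot be recovered exactly after the rounding, and count models were left out. The authors' log2 fold changes and p-values (10% false discovery rate) were deposited in the same table. Of its 27179 genes, 847 carried no symbol. Gene lengths, another deposited quantity (bases, per the file headers), gave levels per kilobase, and gene positions are the deposited coordinates.

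TAC columns are numbered 4 to 6 and their titles otherwise, so they were assigned by group only. With limma 3.58.1 in R 4.3.3, a mean per group was fitted to log2(value + 1) for genes with a mean of at least 10 (14038 of 20278 with any value), with all 12 libraries, a trended eBayes and 8 residual degrees of freedom. The 5 contrasts were called at a Benjamini-Hochberg adjusted p under 0.1 over all genes tested. Fold changes on this scale understate changes of low genes. The fit was tested on simulated data with changes put into TAC Balb/cJ. It called 18 of 67 genes changed by 0.5 on the log2 scale, 46 of 67 changed by 1.0 and 61 of 66 changed by 2.0. Most changes of 0.5 were thus missed there. In the Balb/cJ comparison of the data, 2146 genes were called higher and 2273 lower, which makes the p cutoff less strict. The simulated shares therefore do not give the power of that comparison. Values in every library are given for members that passed in any contrast and for the 3 with the smallest p in each (mean of at least 50), and in other lists for up to 3 genes that passed; Pecam1, Cldn5, Cd36, Adipoq and the genes of the marker lists were added after their values were seen. Members and lists were chosen with earlier results of these data known. No library duplicated another: within groups, 52.3 to 71.8% of genes differed by over 10%. Tables and plots used Python 3.11.15, pandas 2.3.3, numpy 2.4.6 and matplotlib 3.10.9. Alternatives were no filter, pseudocounts 0.5 and 5, an adjusted p of 0.05, same-total and upper-quartile scaling, an atrial covariate, fits restricted to the compared groups, a replicate block and leaving out each library.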

Additional observations from a re-analysis of the deposited data

How the results depend on the processing

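No named member changed direction under any alternative. Of the planned settings, the filter, both pseudocounts, the upper quartile and fits of only the groups compared moved no count of members by over 1.5 times. None of them moved a member median by more than the spread between libraries. Single calls for TAC in Balb/cJ were still lost. Cdh5, Tie1, Ptprb and S1pr1 did not pass with only the groups compared. Ptprb and Ramp2 did not pass with the upper quartile, and Ptprb did not without the filter. Same-total scaling gave 5 lower members and a median of -0.10 for TAC in Balb/cJ, a median of 0.21 for TAC in Balb/cByJ, and 1 lower member between sham strains. The atrial covariate left 0 higher and 0 lower members in Balb/cJ, with a median of -0.32, and 0 of each between sham strains, where Vwf had 0.86. At an adjusted p of 0.05, 1 member was higher and 1 lower between sham strains. For TAC in Balb/cJ, Kdr, Ptprb, S1pr1, Ramp2 and Sox17 did not pass at that threshold. Leaving out each library in turn gave 7 to 14 lower and 0 to 2 higher members for TAC in Balb/cJ, with medians from -0.46 to -0.25. Between sham strains it gave 1 to 4 higher and 0 to 3 lower members, with medians from -0.16 to 0.14. The causes of these shifts were not tested. Under the replicate block, 2 members were higher and 2 lower between sham strains and 0 between TAC strains. Same-numbered sham libraries did not deviate together (correlations -0.21, -0.07 and 0.17), so the numbers pair nothing. No paired analysis was possible for TAC against sham because their columns share no number. With 3 libraries per group, 95% intervals of members such as Cldn5 (-2.01 to 0.05) and Plvap (0.34 to 1.63 in Balb/cJ) are wide.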

Other observations

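Of 10 tip cell and sprouting genes, 4 rose and 1 fell after TAC in Balb/cJ, and 3 rose and 0 fell in Balb/cByJ. Without the library labelled TAC Balb/cByJ 6, which goes against its strain label, 1 rose and 0 fell there. Nid2, a basement membrane nidogen, rose in both strains, by 0.86 on the log2 scale in Balb/cByJ (SE 0.25, limma adjusted p = 0.0644) and by 0.71 in Balb/cJ (SE 0.25, limma adjusted p = 0.0572). Cxcr4, a chemokine receptor, rose by 1.19 in Balb/cByJ (SE 0.24, limma adjusted p = 0.0304) and by 0.58 in Balb/cJ (SE 0.24, limma adjusted p = 0.0955). Without that library, the Balb/cByJ values were 0.71 for Nid2, which did not pass (limma adjusted p = 0.165), and 1.25 for Cxcr4 (limma adjusted p = 0.0548). Fibroblasts and leukocytes also express these genes, and 5 of 6 fibroblast markers rose in each strain.

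Of 6 lymphatic endothelial markers, 2 rose after TAC in Balb/cByJ with all libraries, or 33.3% beside 7.81% of all genes. In Balb/cJ, 1 rose, or 16.7% beside 15.3% of all genes, and the other markers did not pass. Pdpn, a lymphatic surface protein that other cells share, rose by 0.85 in Balb/cByJ (SE 0.22, limma adjusted p = 0.0527) and by 1.06 in Balb/cJ (SE 0.22, limma adjusted p = 0.0101). Without the library labelled TAC Balb/cByJ 6, the Balb/cByJ value was 0.96 (limma adjusted p = 0.0775). Prox1, the transcription factor that defines lymphatic fate, had log2 differences of -0.41 (SE 0.25) in Balb/cByJ, -0.47 without that library, and 0.00 (SE 0.25) in Balb/cJ.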
